A study of Mus musculus with 28 samples.

Results

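The imprinted Igf2r cluster was followed through 4 genes chosen by name, Igf2r, Airn, Slc22a2 and Slc22a3, of the 49939 genes annotated on the assembled mouse chromosomes. Each of 11 deposited lists of peak summits (the single positions at which sequenced fragments pile up highest) was searched inside each gene and within 20 kb of either end. The cells were neural stem cells cultured from the brains of male E14.5 embryos of C57BL/6 x FVB/N background. The null groups were homozygous for the MommeD1 allele (Smchd1MommeD1/MommeD1), which removes the chromatin protein Smchd1, and the other groups were Smchd1 wild-type. Null cells gave 2 H3K4me3, 2 H3K27me3, 2 Ctcf, 2 Smchd1 and 3 MBD libraries. Wild-type cells gave 2 H3K4me3, 2 H3K27me3, 2 Smchd1 and 3 MBD libraries. Ctcf in wild-type cells was mapped in 2 libraries with a non-silencing short hairpin RNA, in 2 libraries of untransduced cells and, as the control for every Ctcf list, in 1 library for each of 2 hairpins against Ctcf. With 1 whole cell extract per genotype there were 28 libraries in 14 groups.

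The cluster is a textbook case of imprinting by a long non-coding RNA. Airn starts inside Igf2r and is transcribed across the Igf2r promoter in the opposite direction. Its promoter is the imprint control element, which carries DNA methylation from the egg on the maternal chromosome, so Airn is made from the paternal one. Airn silences paternal Igf2r in most tissues, and in placenta also paternal Slc22a2 and Slc22a3. The paternal Igf2r promoter is known to gain DNA methylation later. H3K4me3 marks active promoters, H3K27me3 is laid down by a Polycomb complex, Ctcf binds insulators and loop anchors, and MBD capture isolates DNA with methylated CpG. None of the lists separates the parental chromosomes, so a mark on a single one and a mark on both cannot be told apart.

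The authors called each list after pooling a group's libraries. Replicate error is therefore unknown for every value below, and genotypes are compared without a test. A summit's score (the −log10 p-value or q-value of the authors' peak caller) orders summits within a list only. The H3K4me3 lists held 24201 null and 23449 wild-type summits, the H3K27me3 lists 77 and 732, and the Ctcf lists 11920 null, 20483 non-silencing and 8292 untransduced summits. Smchd1 was listed at 407 summits when called at 5e-4 and at 1105 when called at 5e-3. The depth behind the lists is unknown. The labels of the MBD samples go against the names of their lists, since null samples point to the wild-type name and wild-type samples to the null name (D1). The MBD lists are therefore called D1-named (126631 summits) and WT-named (156188 summits) and given no genotype. Of 9 neural stem cell marker genes, 7 had H3K4me3 within 2 kb of a start (either gene end where no start is listed) in the null list and 8 in the wild-type list, with Sox2 and Nes in each of them. Of 4 neuron markers, 3 had it in each list (Tubb3, Map2 and Snap25). Of 3 blood markers, 1 had it in each list, Spi1, which was read at either gene end, and of 3 annotated placental markers 0 had it. H3K4me3 thus did not tell neural stem cells from neurons.

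All 4 genes lie on chromosome 17 (mm10). Igf2r, which encodes the receptor that takes up insulin-like growth factor II and mannose-6-phosphate proteins, spans 12682406 to 12769706 on the minus strand. Airn spans 12741311 to 12859884 on the plus strand and overlaps Igf2r over 28396 bp. The start of Airn lies 28395 bp inside Igf2r, counted from the Igf2r start. Slc22a2 (12584189 to 12628489, plus strand) and Slc22a3 (12419972 to 12507704, minus strand) encode organic cation transporters and start 185517 and 262002 bp from the Igf2r start.

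Promoter windows of the 4 genes, from 250 bases before to 50 bases after the start, are shown because they differ in CpG, the dinucleotide that MBD capture reads when it is methylated. They are RefSeq sequences on GRCm38.p6, the assembly of mm10, written 5′ to 3′ on the strand of each gene, with every CpG in capitals. The windows are chr17:12741061-12741360 for Airn, chr17:12769657-12769956 for Igf2r, chr17:12583939-12584238 for Slc22a2 and chr17:12507655-12507954 for Slc22a3.
Airn: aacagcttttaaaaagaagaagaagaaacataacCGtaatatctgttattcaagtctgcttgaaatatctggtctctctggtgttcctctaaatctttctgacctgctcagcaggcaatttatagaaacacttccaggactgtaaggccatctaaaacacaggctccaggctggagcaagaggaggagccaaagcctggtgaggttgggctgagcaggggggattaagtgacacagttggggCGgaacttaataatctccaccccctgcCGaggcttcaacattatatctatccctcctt
Igf2r: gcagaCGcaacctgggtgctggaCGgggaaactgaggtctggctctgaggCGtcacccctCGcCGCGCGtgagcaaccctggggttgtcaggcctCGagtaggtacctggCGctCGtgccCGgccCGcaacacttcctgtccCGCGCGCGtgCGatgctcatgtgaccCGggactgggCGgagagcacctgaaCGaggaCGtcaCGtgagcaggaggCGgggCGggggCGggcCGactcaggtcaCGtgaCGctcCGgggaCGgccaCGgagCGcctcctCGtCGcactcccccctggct
Slc22a2: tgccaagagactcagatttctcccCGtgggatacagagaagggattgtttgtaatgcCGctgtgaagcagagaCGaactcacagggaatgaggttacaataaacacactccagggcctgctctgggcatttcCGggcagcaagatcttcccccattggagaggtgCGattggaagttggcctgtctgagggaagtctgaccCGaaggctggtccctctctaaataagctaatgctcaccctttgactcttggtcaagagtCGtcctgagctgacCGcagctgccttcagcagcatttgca
Slc22a3: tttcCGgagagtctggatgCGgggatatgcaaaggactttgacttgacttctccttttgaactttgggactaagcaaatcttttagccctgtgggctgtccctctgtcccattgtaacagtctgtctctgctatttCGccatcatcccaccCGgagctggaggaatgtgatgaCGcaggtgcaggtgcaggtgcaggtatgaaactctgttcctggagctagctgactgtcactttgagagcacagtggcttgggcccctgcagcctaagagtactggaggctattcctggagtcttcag
The Igf2r window held 34 CpG, more than 92.3% of 32851 promoter windows, and the Airn window held 3, more than 23.3% of them. Slc22a2 had 8 and Slc22a3 had 5, around the median of 7. The letters CCCTC, a part of the Ctcf motif, occurred on either strand 1 time each in Airn, Igf2r and Slc22a3 and 2 times in Slc22a2. They occurred in 66.0% of all windows, so their presence sets none of the 4 apart.

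H3K4me3 was found at the promoters of Airn and Igf2r in both genotypes and nowhere else within 20 kb of the 4 genes. In the null list 2 of 4 genes had a summit inside or within 20 kb, where 49.1% of all genes did, and in the wild-type list 2 of 4 did, where 49.2% of all genes did. The Airn summits lay 178 bp downstream of the start in the null list and 180 bp downstream in the wild-type list, 2 bp apart. At Igf2r they lay 186 bp downstream in the null list and 115 bp downstream in the wild-type list. In the cluster all 2 null summits had a wild-type summit within 1 kb, where 92.2% of the null list did, and all 2 wild-type summits had a null one, where 92.6% of the wild-type list did. Slc22a2 and Slc22a3 had none, and their nearest H3K4me3 lay 113 and 101 kb from the gene in both lists. No summit there means only that none passed the calling threshold.

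The order of both promoters differed between the lists. In the null list Igf2r scored higher, with 30.2 against 22.8 at Airn. In the wild-type list Airn scored higher, with 35.3 against 17.4 at Igf2r. Put as a place in each list, the Airn summit scored above 47.3% of null and 64.2% of wild-type H3K4me3 summits, and the Igf2r summit above 57.6% of null and 36.6% of wild-type ones. Among 5109 pairs of neighbouring H3K4me3 positions that both lists hold and that lie 10 to 50 kb apart, 20.4% had opposite orders, and 1.14% had opposite orders with score differences at least as large in both lists as those between Airn and Igf2r. The pair of promoters was singled out with its values known, and neither share is a test of the genotype.

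**Figure D1:**
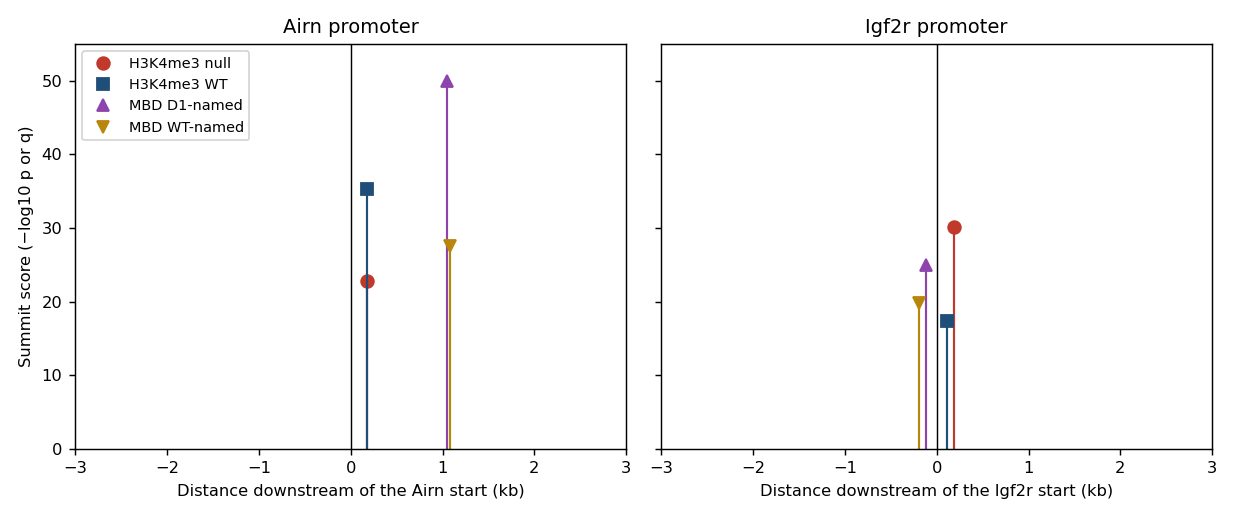
Scores of H3K4me3 summits (null and WT lists) and MBD summits (D1-named and WT-named lists) against the distance in kb downstream of the Airn start and of the Igf2r start, 1 point per summit. H3K4me3 scored 22.8 in null and 35.3 in WT at Airn, and 30.2 in null and 17.4 in WT at Igf2r. The MBD summits scored 49.9 in the D1-named list and 27.6 in the WT-named list at Airn, and 24.9 and 19.8 in the same order at Igf2r.

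Methylated DNA was found at the same promoters. Within 2 kb of the Airn start each MBD list held 1 summit, 1045 bp downstream with a score of 49.9 in the D1-named list and 1077 bp downstream with a score of 27.6 in the WT-named list. They lay 867 bp from the null and 897 bp from the wild-type H3K4me3 summit of the same promoter, comparing the D1-named list with null and the WT-named list with wild type by name. At the Igf2r start the MBD summits lay 118 bp upstream in the D1-named list (score 24.9) and 191 bp upstream in the WT-named list (19.8), inside the CpG-rich window printed above. The Airn summits lay beyond the window of Airn, whose CpG are few. Slc22a2 had 1 MBD summit of each list within 2 kb of its start (264 bp downstream with a score of 15.6 in the D1-named list and 254 bp downstream with 25.1 in the WT-named list). Slc22a3 had 0, the nearest lying 5.10 kb upstream in each list. A summit this near was thus held by 3 of the 4 genes in the D1-named list, where 22.0% of genes with a listed start had one, and by 3 of 4 in the WT-named list, where 25.7% did.

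H3K4me3 and MBD summits both lay within 2 kb of the starts of Airn and Igf2r. For Airn this depends on the distance, since neither MBD list had a summit within 1 kb of its start. Airn and Igf2r, 2 of the 4 genes, had a summit of both H3K4me3 lists and of both MBD lists within 2 kb of the start, which held for 7.19% of 27025 genes with a listed start and for 16.3% of the 11918 that had H3K4me3 in both lists. Among 17 annotated genes of imprinted control regions elsewhere, most of them with promoters methylated on a single parental chromosome, 14 had it. The paternally expressed Kcnq1ot1, Peg3 and Snrpn were among them. Of 11 neighbours of the cluster on chromosome 17, 7 had H3K4me3 in each list and 0 had all 4. Those with H3K4me3 were Mrpl18, Tcp1, Acat2, Wtap, Sod2, Map3k4 and Agpat4, which serve the mitochondrial ribosome, protein folding, RNA methylation, metabolism and signalling. Both control-region and neighbour lists were read at either gene end where no start was listed.

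**Figure D2:**
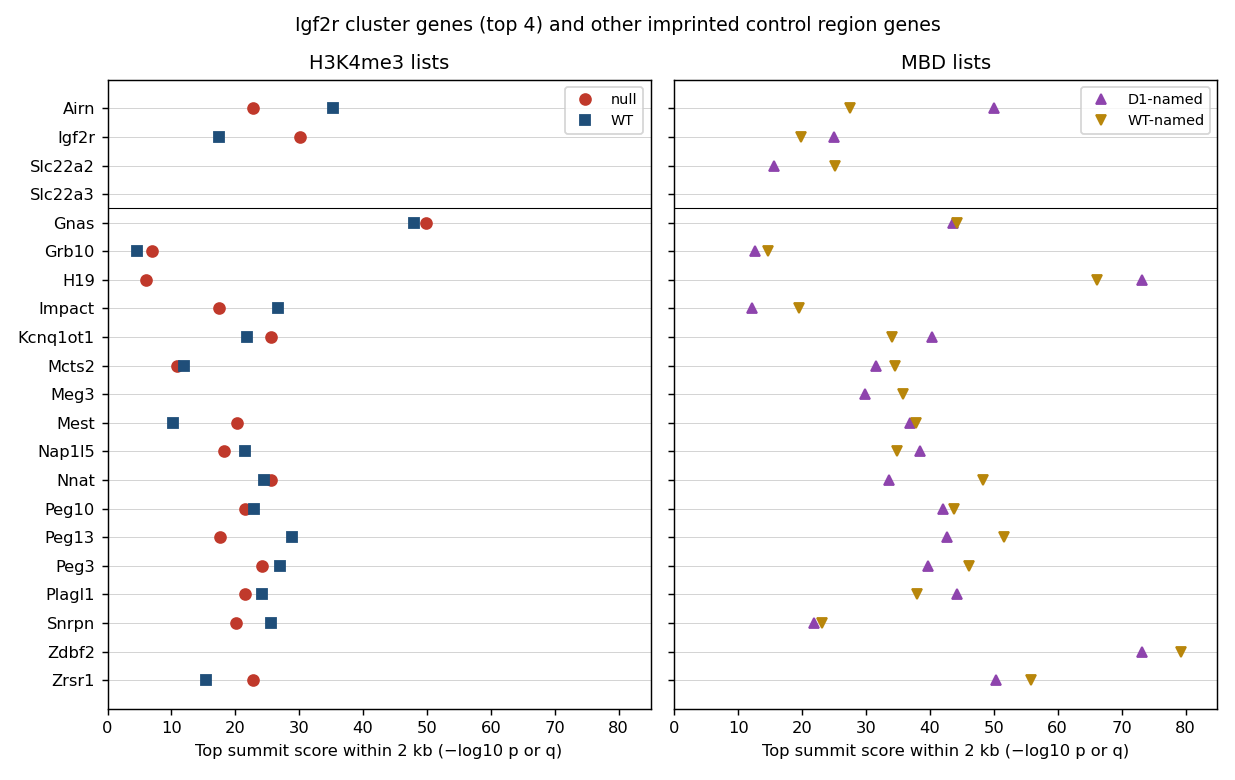
Top score within 2 kb of a start (either gene end where no start is listed) for the 4 cluster genes, above the line, and 17 genes of other imprinted control regions, with H3K4me3 lists on the left and MBD lists on the right. Airn and Igf2r have a point of every list, Slc22a2 has MBD alone and Slc22a3 has none.

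Across the cluster, MBD summits were many and mostly shared. All 4 genes had MBD summits within 20 kb in the D1-named list, where 80.7% of all genes did, and in the WT-named list, where 84.2% did. The D1-named list held 43 summits within 20 kb of any of the 4 genes and the WT-named list held 51. All 43 D1-named summits had a WT-named summit within 1 kb (exact 95% Clopper-Pearson interval 91.8 to 100%), where 98.2% of the whole list did. Of the 51 WT-named summits 45 had a D1-named one (88.2%, interval 76.1 to 95.6%), where 82.5% of the whole list did. These intervals cover counting error only and take neighbouring summits as independent. The 6 WT-named summits without a partner scored 6.91 to 15.3, with 1 inside Slc22a3, 2 inside Igf2r, 2 inside Airn and 1 beyond the end of Airn.

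The number of MBD summits per 100 kb varied among the genes, from counts of 4 to 15 summits inside a gene. No density over all genes is set beside it. Igf2r was highest in both lists, while the order of the other genes changed between them. Inside Igf2r there were 12.6 per 100 kb in the D1-named list and 17.2 in the WT-named list. Inside Airn there were 8.43 and 10.1 in the same order, inside Slc22a2 11.3 and 9.03, and inside Slc22a3 10.3 and 12.5. The part of Igf2r that Airn does not overlap, 58.9 kb long, held 9 D1-named and 13 WT-named summits, among them the highest of the cluster in both lists, at 12687986 (64.1, D1-named) and 12687992 (79.2, WT-named). The 28.4 kb between the Airn and Igf2r starts held 2 in each list, the Airn promoter summit and another 16.5 kb past the Airn start.

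The order of MBD scores was compared over the 42 positions of the cluster paired between both lists, which lay a median of 10 bp apart. The Airn promoter took place 3 in the D1-named list and place 16 in the WT-named list. The Igf2r promoter took place 13 in the D1-named list and place 27 in the WT-named list. The Slc22a2 start went the other way, at place 24 in the D1-named list and 21 in the WT-named list. Places differed by a median of 3.5 and by at most 16. Of the 42 positions 7 moved by 10 or more. The Airn and Igf2r promoters and 12448745 in Slc22a3 (10 places) were higher in the D1-named list. The rest were higher in the WT-named list: 12594409 in Slc22a2 (16), 12867054 beyond Airn (16), 12689062 in Igf2r (15) and 12419656 beside Slc22a3 (11).

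Over 122749 positions paired on all chromosomes, ranked within each list, the Airn promoter lay above 90.2% in the D1-named list and above 53.1% in the WT-named list. Igf2r lay above 62.9% in the D1-named and 36.6% in the WT-named list, and Slc22a2 above 40.01% and 47.9%. A difference at least as large toward the D1-named list as at Airn was found at 0.508% of all positions, as at Igf2r at 2.32%, and as at Slc22a2 at 77.4%. These shares are over all positions, wherever they lie, and were not counted for positions near gene starts alone. By place on this scale, 24 of the 42 cluster positions lay higher in the D1-named list, where 50.2% of all positions did. The top summits within 2 kb at genes of other control regions, placed on the same scale, lay higher in the D1-named list at 15 of 17 genes and lower at 2. The difference was 37.0 percentage points at Airn and 26.4 at Igf2r. Among the 17 it was smaller at each, with 18.3 points at Kcnq1ot1, 17.2 at Plagl1 and 16.0 at Nap1l5. The scale has an upper end, and most of the 17 lay well above Airn in the WT-named list, such as Zdbf2 (97.2%) and H19 (92.4%). Those genes had no room to rise as far as Airn, which limits the comparison. Only Snrpn (44.1%), Impact (33.8%) and Grb10 (19.8%) lay below Airn there. They differed by 12.7, −8.30 and 7.63 points. These orders were looked at with the values known, and which genotype the D1-named list holds cannot be told from the labels.

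**Figure D3:**
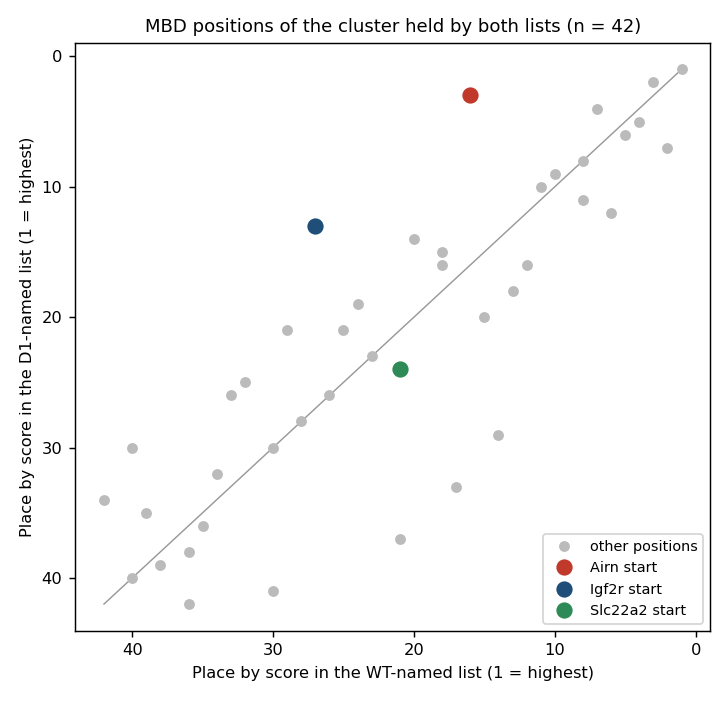
Place by score of each of 42 paired MBD positions of the cluster in the D1-named list (vertical axis) against its place in the WT-named list (horizontal axis), with 1 the highest and the line marking equal places. The Airn start (places 3 and 16) and the Igf2r start (13 and 27) lie above the line, and the Slc22a2 start (24 and 21) lies just below it.

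Ctcf occupied 7 positions within 20 kb of the 4 genes when summits of the 3 lists within 1 kb were joined. In the null list 2 of 4 genes had a summit, where 33.7% of all genes did. In the non-silencing wild-type list 3 of 4 had one, where 45.8% of all genes did, and in the untransduced wild-type list 1 of 4 had one, where 26.6% did. The position held by all 3 lists lay inside Airn at 12810653 (null), 12810677 (non-silencing) and 12810668 (untransduced), 69.3 kb downstream of the Airn start and 41.0 kb upstream of the Igf2r start. Its score was 6.66 in null cells, 22.8 in non-silencing wild-type cells and 21.1 in untransduced wild-type cells. The nearest MBD summit lay 8451 bp away in the D1-named and 6231 bp away in the WT-named list.

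This Airn position was low in the null list and high in both wild-type lists. It scored above 25.3% of all null summits, 95.8% of non-silencing summits and 97.6% of untransduced summits. Over the 4755 positions that all 3 lists hold, ranked within each list, it lay above 12.6% in null cells, 85.8% in non-silencing and 96.2% in untransduced wild-type cells. The null place was thus 73.3 percentage points under the lower of both wild-type places. A gap at least as large was found at 10 of the 4755 positions (0.21%), while 34.7% lay lower in null cells than in both wild-type lists. These 4755 leave out every position without a null summit, such as 12372231 beside the cluster. That one scored 7.38 in non-silencing and 14.2 in untransduced cells. The 0.21% thus covers only positions that the null list kept. The Airn position was singled out after its values were seen, and the wild-type lists share the null list's control libraries.

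The second position lay inside Igf2r, 7.28 kb from its downstream end, at 12689685 in the null list (score 4.98) and 12689794 in the non-silencing list (10.8), and had no untransduced summit. An MBD summit of each list lay 623 bp from its null summit. How often Ctcf summits lie this near an MBD summit over all chromosomes was not counted. The other 5 positions were in the non-silencing list alone. They lay at 12403689 (8.39) and 12416440 (8.55) in Plg beside Slc22a3, at 12421372 (10.9) and 12455363 (5.65) in Slc22a3, and at 12858334 (7.52) near the downstream end of Airn, where it overlaps Mas1. The nearest D1-named MBD summits lay 398 bp from 12421372 and 416 bp from 12455363, and 2296 to 15047 bp from the rest of these 5 positions. Slc22a2 had no Ctcf summit within 20 kb in any list.

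Absence from 1 list was common for Ctcf. Of all non-silencing summits, 44.7% had a null summit and 35.5% an untransduced summit within 1 kb. In the cluster these were 2 and 1 of 7. Both null summits had a non-silencing partner, where 75.7% of the whole null list did, and 1 of them had an untransduced partner, where 43.3% did. The single untransduced summit had a partner in the null list, where 61.7% of its list did, and in the non-silencing list, where 85.6% did. The non-silencing list is the longest of the 3, and the 5 positions it holds alone are absent from the untransduced wild-type list as well as from the null list.

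**Figure D4:**
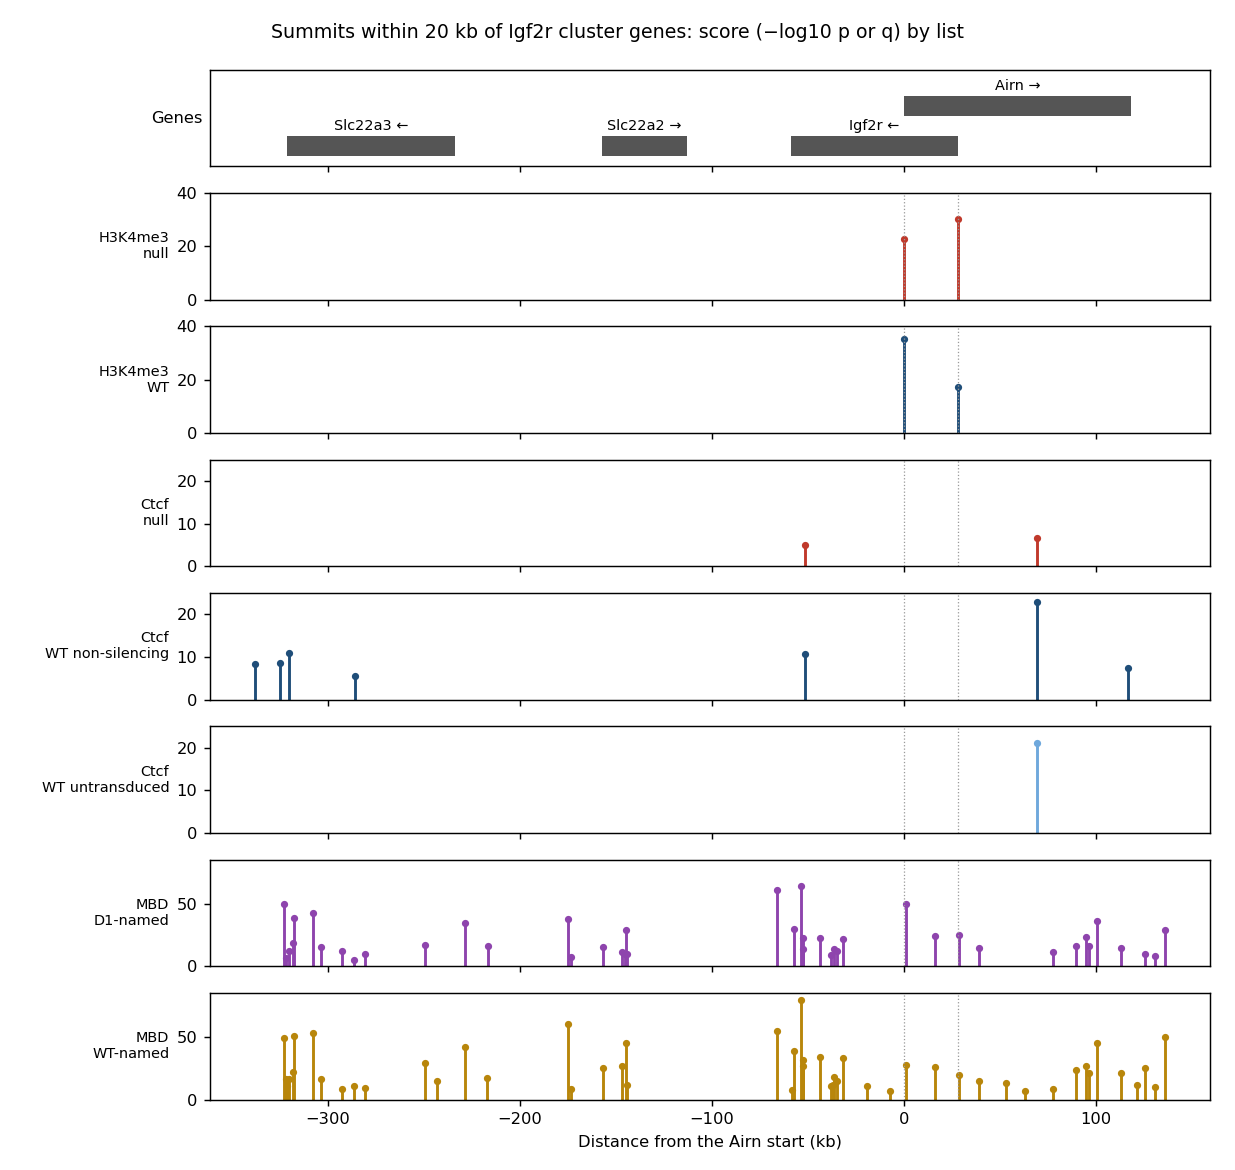
Genes of the cluster (top, arrows give the strand) and the scores of summits within 20 kb of them by distance in kb from the Airn start, with 1 stem per summit and dotted lines at the Airn and Igf2r starts. H3K4me3 stands at both starts alone, the Ctcf position of all 3 lists lies at 69.3 kb with scores of 6.66 in null, 22.8 in non-silencing and 21.1 in untransduced cells, and MBD summits run along every gene.

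Smchd1 itself and H3K27me3 were not listed at the cluster. In wild-type cells 0 of 4 genes had a Smchd1 summit within 20 kb at 5e-4, where 1.16% of all genes did, and 0 of 4 at 5e-3, where 3.15% did. The summit nearest to the Airn start was 6283 kb away in the first list and 251 kb away, with a score of 3.56, in the second. H3K27me3 was listed at 0 of 4 genes in null cells, where 0.352% of all genes had it, and at 0 of 4 in wild-type cells, where 1.29% did. The null list had no summit on chromosome 17, and the wild-type list's nearest lay 12012 kb from the Airn start. With backgrounds this low, 0 of 4 is what most genes show.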

How the data were processed

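Smchd1, Ctcf, H3K4me3 and H3K27me3 ChIP-seq and MBD-seq were carried out on neural stem cells, per the labels' protocols. Per the submitters' processing notes, the tools were CASAVA 1.4 for base calls and MACS2 (version 2) for peaks, on mm10. For the aligner, nothing is stated in the labels. The deposited scores of 1 bp summits are the authors' −log10 p-values or q-values, and the labels do not say which. Per the labels, Smchd1 lists were called against null cells, Ctcf lists against Ctcf hairpins, and the others against the genotype's own whole cell extract. A control or depth that differs therefore changes which summits are listed.

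Summits on assembled chromosomes were counted with Python 3.11.15, numpy 2.4.6 and pandas 2.3.3, intervals were computed with scipy 1.17.1, and plots with matplotlib 3.10.9. Code was tested on simulated data. Gene spans and promoter windows are RefSeq GRCm38.p6, and all 4 genes matched both tables. Summits within 1 kb counted as shared. MBD positions were paired when each was the nearest of the other. Genes were named by rule: the 4 genes, 11 neighbours (another is not reported here), 18 control-region genes (17 annotated) and cell type markers. These lists and the alternatives (other distances, scores, merging, equal list lengths) were chosen with earlier results of these data known. Exons and introns were not used here.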

Additional observations from a re-analysis of the deposited data

How the results depend on the processing

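Changing the distance, the score minimum, merging or list length left most counts of summits within 1.5 times of their value. Shares of all genes were classed more strictly. For D1-named MBD, a change from 80.7% to 86.5% with protein-coding genes only was classed as moved. Of the main results 111 were classed as the same and 30 as moved, the latter mostly shares of all genes. The numbers of H3K4me3, H3K27me3 and Smchd1 summits at the cluster stayed the same under every alternative tried. For H3K27me3 and Smchd1 these were 0, which stricter rules could not lower. Only the 50 kb distance or, for Smchd1, the 5e-3 list could have raised them. At a score of at least 5 the null Ctcf list kept 1 summit, and 1 null summit was shared with the non-silencing list. At a score of at least 10 the null list kept 0 and the non-silencing list 3. Within 50 kb the non-silencing list held 11 and the untransduced list 3. For single genes, 19 of the counts moved by more and 245 did not, and many of the latter were counts of 0 that stricter rules could not lower. With equal numbers of highest-scoring summits, 0 null summits had an untransduced partner. Within 1 kb of the Airn start both MBD lists held 0 summits, since theirs lie just beyond. The promoters' places in the MBD order, tried after seeing the data with pairs within 250 bp and with scores of at least 10, stayed 13 and 14 places higher in the D1-named list. The share of all genes near a summit moved with the rule. Within 5 kb it was 0.699% and 1.84% for Smchd1 at 5e-4 and 5e-3, 38.1% and 38.3% for null and wild-type H3K4me3, 0.206% and 0.863% for null and wild-type H3K27me3, 19.3%, 27.7% and 14.8% for null, non-silencing and untransduced Ctcf, and 60.2% and 64.7% for D1-named and WT-named MBD. For protein-coding genes it was, in the same order, 1.34%, 3.82%, 70.6%, 70.7%, then 1.54% for wild-type H3K27me3, then 46.8%, 61.1%, 38.3%, 86.5% and 89.0%. Leaving out a replicate could not be run on lists called on pooled libraries. No paired analysis was possible because each list pools its replicates and holds no per-sample value. Unknown depth limits every absence above.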

Other observations

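Further Ctcf positions lay between 20 and 50 kb from the 4 genes. The position at 12880348, past the downstream end of Airn, was in all 3 lists, with scores of 4.76 in null, 12.2 in non-silencing and 9.21 in untransduced cells. A position between Slc22a3 and Slc22a2 (12534943) was in the non-silencing list alone, with a score of 8.83, and lay 390 bp from a D1-named and 415 bp from a WT-named MBD summit. The position at 12372231, beside Plg, was in both wild-type lists, with scores of 7.38 in non-silencing and 14.2 in untransduced cells, and had no null summit. The nearest D1-named MBD summit lay 210 bp from 12372231 and 3091 bp from the position at 12880348.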
